A study of Arabidopsis thaliana with 30 samples.

Results

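The RNA bound to tagged ribosomes was compared between Arabidopsis seedlings kept under hypoxia for 2 h and seedlings kept in air for 2 h. The comparison was chosen by sample title: 3 arrays of immunopurified (IP) RNA after 2 h of hypoxia stress against 3 arrays of IP RNA after 2 h without stress, which is 6 of the 30 arrays of the series. All seedlings were 7 days old and carried a single-copy 35S:His6FLAG-RPL18B transgene in the Col-0 background, so the air controls held the tagged ribosomal protein as well. The other 24 arrays cover total RNA of the same treatments, both RNA pools after 9 h of air or hypoxia, and both pools after 9 h of hypoxia with 1 h of recovery, with 3 arrays in each of the 10 groups. The labels speak of 3 independent biological replicate experiments, of whole seedlings, of treatments begun as the light period ended, and of polyA RNA with 3 µg taken for each cDNA synthesis. The design text names the IP RNA polysomal mRNA, and that name is used here.

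Ribosomal protein RPL18B with an N-terminal epitope tag is built into the large ribosomal subunit, and the mRNAs that the ribosomes hold come down with them. The transgene is driven by the 35S promoter, a strong viral promoter that is active in most but not all plant cells to the same degree. Under low oxygen mitochondrial respiration slows, ATP falls, and plant cells turn to glycolysis with ethanol and lactate fermentation. A small set of genes is switched on within hours through ethylene response factors of group VII, which are degraded while oxygen is present. Loading of ribosomes drops for most mRNAs, since protein synthesis is a large consumer of ATP.

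Levels are log2 signals from which the array's mean over 22746 non-control probe sets was subtracted, so a level of 0 is that of the average probe set on the array. The subtraction matters in this comparison. The mean deposited signal of the polysomal arrays was 5.364 in air and 4.537 after hypoxia, a difference of -0.83 on the log2 scale, or a ratio of 0.563, with a standard deviation (SD) of at most 0.0099 within a group. Total RNA arrays differed by -0.01. The mean of 9 probe sets for hybridisation controls moved by -0.88 on the polysomal arrays and by 0.26 on the total arrays. Every change given here is therefore relative to the average probe set, and whether the offset reflects the amount of RNA on ribosomes was not tested. The offset is the same for every probe set, so any rise of less than 0.83 given here is negative on the deposited values. On the deposited values without centring 623 probe sets were higher and 20042 lower.

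Hypoxia replicate 2 stood apart from the other hypoxic polysomal arrays. Across probe sets its correlation with the 3 air arrays was 0.971 to 0.977, against 0.9501 to 0.9556 for hypoxia replicates 1 and 3, and its correlation with those replicates was 0.987, against 0.995 between them. The arrays of total RNA gave a view of this that did not use the polysomal arrays. Over the 592 probe sets at least 2-fold higher in total RNA (2.6% of those tested), the median change in polysomal RNA was 1.87, 1.08 and 1.84 in hypoxia replicates 1, 2 and 3, and over the 340 at least 2-fold lower (1.49%) it was -0.85, -0.43 and -0.89. Total RNA of hypoxia replicate 2 also had the smallest medians, 1.199 and -1.0004, against 1.64 and -1.24 in replicate 1 and 1.74 and -1.44 in replicate 3. Results are given with all 3 arrays, and values without replicate 2 stand beside those it moves.

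After 2 h of hypoxia 3566 probe sets rose and 4012 fell in polysomal RNA, which is 15.7% and 17.6% of those tested (limma on all 30 arrays, Benjamini-Hochberg adjusted p under 0.05). At least 2-fold changes were fewer, 929 higher (4.08%) and 787 lower (3.46%). The changes were not symmetric at their ends: 202 probe sets rose at least 4-fold and 24 fell at least 4-fold, and 40 rose at least 16-fold. The median change over all probe sets was -0.02 and the central 90% lay between -0.87 and 0.89. Without hypoxia replicate 2, 3628 rose and 4169 fell, and the counts of at least 2-fold changes were 1174 and 1102. In 811 of the 929 probe sets that rose at least 2-fold, and in 632 of the 787 that fell, replicate 2 had the smallest change of the 3 hypoxia arrays. Calls were most frequent among abundant transcripts: when probe sets were split into 4 classes of equal size by level in total RNA of air seedlings, 2.46% rose and 1.301% fell in the lowest class, and 25.9% rose and 31.1% fell in the highest. All 3 hypoxia arrays lay above all 3 air arrays for 4443 probe sets (19.5%) and below them for 5029 (22.1%). Only 13513 of the 22810 probe sets on the array were paired with a single gene in the annotation used, so 1793 of those that rose and 2287 of those that fell can be named.

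Among probe sets named with 1 gene, 12 of the 15 largest rises were in genes on a list of the core low-oxygen response. That list was drawn with earlier results of these data known, so the match is not independent evidence. Most of the 15 encode small proteins of unknown function. AT5G10040 had levels of -1.78, -1.45 and -1.93 in air and 5.64, 5.23 and 5.33 under hypoxia, a rise of 7.12 ± 0.22 (SE, n = 3 arrays per group, adjusted p = 2.42e-18). CML38, a calmodulin-like calcium sensor, went from -1.45, -0.38 and -0.63 to 5.84, 5.34 and 5.85, a rise of 6.50 ± 0.27 (adjusted p = 4.75e-16). Both thus moved from below the average probe set to far above it, with no overlap and with little spread between the hypoxic replicates. Detection calls were not used here, so where the air signal is as low as in AT5G10040 it may be background, and the rise may be understated. AT3G10040 encodes HRA1, a trihelix factor known to dampen the group VII ethylene response factors that switch it on. Its levels were -1.13, -0.55 and -0.82 in air and 4.13, 4.32 and 3.92 under hypoxia, a rise of 4.96 ± 0.21 (adjusted p = 1.42e-15). For HRA1 replicate 2 was the highest hypoxic array.

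The remaining genes among the 15 largest rises were AT4G24110 (5.34), AT2G17850 (5.18), AT1G19530 (5.11), AT5G20790 (5.07), AT3G23170 (4.91), AT4G39675 (4.89), AT4G10270 (4.72), AT1G33055 (4.68), AT3G27220 (4.67), AT4G33560 (4.48), AT4G27450 (4.18) and AT3G29970 (4.13). AT4G10270 and AT4G33560 belong to the wound-responsive family of small proteins, and AT3G27220 encodes a kelch-repeat protein. The highest adjusted p among the 15 was 3.42e-11. All 15 also rose in total RNA, and replicate 2 had the smallest change in 11 of them. Their starting points differed: AT4G10270 was already well above the average in air, at 2.41, 2.66 and 2.61, and reached 7.49, 7.06 and 7.31, while AT3G29970 went from -1.48, -1.58 and -1.60 to 2.85, 1.93 and 2.93. The rise in AT4G10270 was 4.72 ± 0.16 and that in AT3G29970 4.13 ± 0.27.

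**Figure D1:**
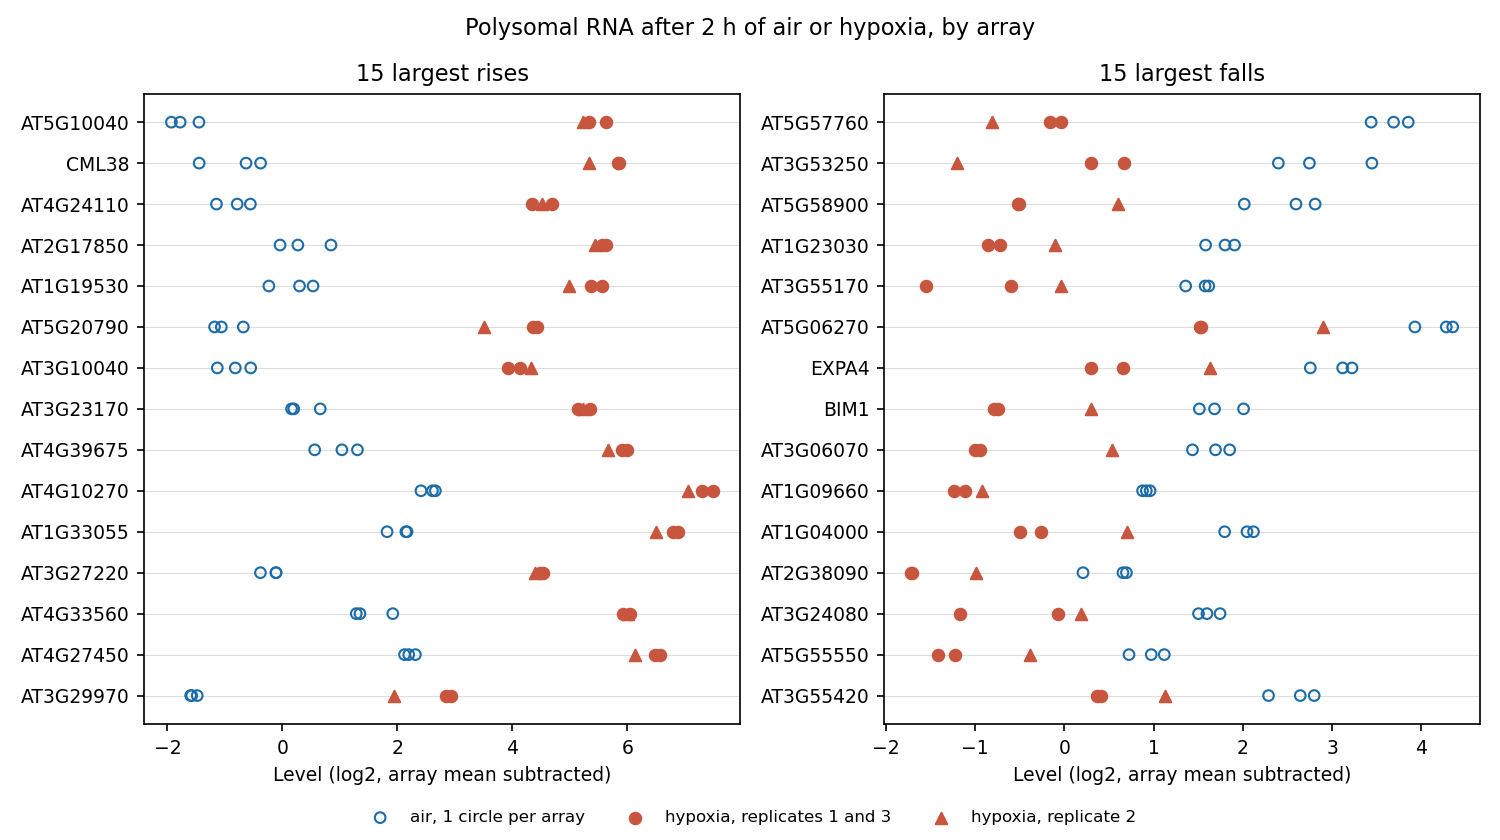
Levels of the 15 largest rises and the 15 largest falls in polysomal RNA (log2, array mean subtracted), with open circles for the 3 air arrays, filled circles for hypoxia replicates 1 and 3, and triangles for hypoxia replicate 2. No gene overlaps between air and hypoxia, as the choice of genes required, and the triangle lies nearest to the air arrays for 11 of the 15 rises and 13 of the 15 falls.

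Of 48 genes on a list of the core low-oxygen response, 23 had a named probe set, and 22 of them rose, with a median change of 4.18, against 15.7% of all probe sets. Like the other gene lists, this one was drawn from general knowledge with earlier results of these data known. Its direction is therefore not independent evidence. Members with smaller changes were AT3G03270, of the universal stress protein family (1.73 ± 0.14), AT1G74940 (1.89), AT3G10020 (2.05) and AT2G15880 (1.11, adjusted p = 0.0325). AT5G45960 did not pass the test and was at 0.10 (adjusted p = 0.507). No member fell, also at an unadjusted p under 0.05. Without hypoxia replicate 2 the median was 4.31 and 22 again rose. The per-array medians were 4.36, 4.22 and 4.26, so hypoxia replicate 2 stood close to the others for this list.

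Genes on a list of fermentation and sucrose breakdown rose as well, though only 3 of 20 had a named probe set. All 3 rose, where 15.7% of all probe sets rose. PDC2, a pyruvate decarboxylase that opens the route to ethanol, had levels of 1.93, 1.85 and 2.02 in air and 5.58, 5.09 and 5.43 under hypoxia, a rise of 3.43 ± 0.12 (adjusted p = 1.80e-17). AT4G17260, a lactate dehydrogenase, went from 1.40, 1.72 and 1.64 to 3.90, 4.21 and 4.03, a rise of 2.46 ± 0.19 (adjusted p = 2.44e-10). ALDH7B4, an aldehyde dehydrogenase, went from 1.51, 1.32 and 1.42 to 3.87, 2.93 and 3.84, a rise of 2.13 ± 0.20 (adjusted p = 1.06e-08). In each of the 3 all hypoxia arrays lay above all air arrays, as in 19.5% of all probe sets.

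Glycolytic genes showed small rises relative to the average probe set. Of 12 measured genes of 38 listed, 10 rose and none fell (15.7% and 17.6% of all probe sets), also none at an unadjusted p under 0.05, with a median of 0.57. On the deposited values 1 rose and 7 fell, with a median of -0.26, so the direction for this list holds only relative to the average probe set. PPDK, pyruvate orthophosphate dikinase, had the largest change and the widest spread, from 1.82, 1.85 and 1.28 in air to 3.75, 2.36 and 3.94, a rise of 1.70 ± 0.35 (adjusted p = 0.000325). AT1G76550, a subunit of the pyrophosphate-dependent phosphofructokinase, went from 0.90, 0.99 and 0.56 to 1.75, 1.57 and 1.90, a rise of 0.92 ± 0.13 (adjusted p = 3.76e-06). AT5G42740, cytosolic glucose-6-phosphate isomerase, went from 2.04, 2.10 and 2.03 to 2.88, 2.71 and 2.73, a rise of 0.72 ± 0.10 (adjusted p = 1.70e-06) that was -0.11 on the deposited values. In these 3 genes all hypoxia arrays lay above all air arrays, as in 19.5% of all probe sets. AT5G56350, a pyruvate kinase, rose by 0.67 ± 0.15 (-0.15 on the deposited values), ENOC, an enolase, by 0.58, GAPC2, a cytosolic glyceraldehyde-3-phosphate dehydrogenase, by 0.43, and TPI, triose-phosphate isomerase, by 0.40, and these 3 are negative on the deposited values too. The per-array medians of the list were 0.56, 0.51 and 0.60.

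Calcium and reactive oxygen signalling genes rose in 8 of 11 cases and fell in 1 (15.7% and 17.6% of all probe sets), with a median of 0.65 that turned to -0.18 on the deposited values (3 rose and 4 fell). Beside CML38, AT1G05575 went from -0.56, -0.71 and -0.37 to 2.10, 0.66 and 2.13, a rise of 2.17 ± 0.31 (adjusted p = 3.43e-06). AT1G76640, the calmodulin-like gene CML39, rose by 1.20 ± 0.34 and CML37 by 0.63 (negative on the deposited values), whereas CML42 fell by 0.68. The calmodulin-like family therefore moved in both directions, and CML41 was at 0.05 (adjusted p = 0.897). GSTU25, a glutathione transferase, rose by 0.71 and is negative on the deposited values.

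The 4 measured stress transcription factors of 32 listed all rose, where 15.7% of all probe sets rose. STZ, a zinc-finger repressor induced by many stresses, had levels of -0.56, -0.11 and -0.56 in air and 3.28, 1.92 and 2.82 under hypoxia, a rise of 3.09 ± 0.27 (adjusted p = 2.07e-09). WRKY6 went from 0.32, 0.75 and 0.10 to 3.33, 2.75 and 2.55, a rise of 2.48 ± 0.18 (adjusted p = 9.30e-11). WRKY22, a factor of immune and submergence responses, went from 0.29, 0.37 and -0.45 to 2.92, 2.11 and 2.15, a rise of 2.32 ± 0.28 (adjusted p = 2.99e-07). All 3 were above the air range on every hypoxic array, as were 19.5% of all probe sets. WRKY53, a factor of leaf senescence, rose by 1.02 ± 0.28 (adjusted p = 0.00508), but its level in hypoxia replicate 2, -1.22, lay inside the air range of -1.41 to -1.15, while replicates 1 and 3 were at 0.18 and 0.30. Its call ended without hypoxia replicate 3 (0.74, adjusted p = 0.0598). Of 2 measured genes of ethylene synthesis and signalling, RTE1, which acts with the receptor ETR1, fell by 0.38 ± 0.10 (adjusted p = 0.00404).

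Heat shock genes depended on the array more than any other list drawn in the plot of list medians. Of 11 measured genes of 30 listed 9 rose and none fell, against 15.7% and 17.6% of all probe sets (none fell at an unadjusted p under 0.05), with a median of 1.74. The per-array medians were 2.03 in hypoxia replicate 1, 0.28 in replicate 2 and 2.51 in replicate 3, and replicate 2 had the smallest change in 10 of the 11 genes. AT5G51440, a mitochondrial small heat shock protein, had levels of -0.60, -0.19 and -0.87 in air and 2.19, 0.96 and 3.09 under hypoxia, a rise of 2.63 ± 0.45 (adjusted p = 3.94e-05). AT1G53540, a cytosolic small heat shock protein, was at -1.99, -1.62 and -1.16 in air and at 1.41, -1.36 and 2.55 under hypoxia, so that replicate 2 lay within the air range. Its rise was 2.45 ± 0.54 (adjusted p = 0.00073), and between 1.61 and 3.57 when single arrays were left out. AT2G29500 went from -0.41, 0.05 and -0.10 to 1.90, 0.57 and 2.55, a rise of 1.83 ± 0.34 (adjusted p = 0.000132). ATHSP22.0, a small heat shock protein of the endoplasmic reticulum, was at -1.71, -1.41 and -1.57 in air and at 0.54, -1.29 and 1.52 under hypoxia, a rise of 1.82 ± 0.41 (adjusted p = 0.000858). Its value rose to 2.60 without replicate 2 and dropped to 1.19 without replicate 3. Without hypoxia replicate 2 the list's median was 2.35 and 10 genes rose. When only the 6 arrays compared were fitted, AT1G53540 and ATHSP22.0 lost their calls (adjusted p = 0.0615 and 0.0505), as did 7 genes of other lists.

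**Figure D2:**
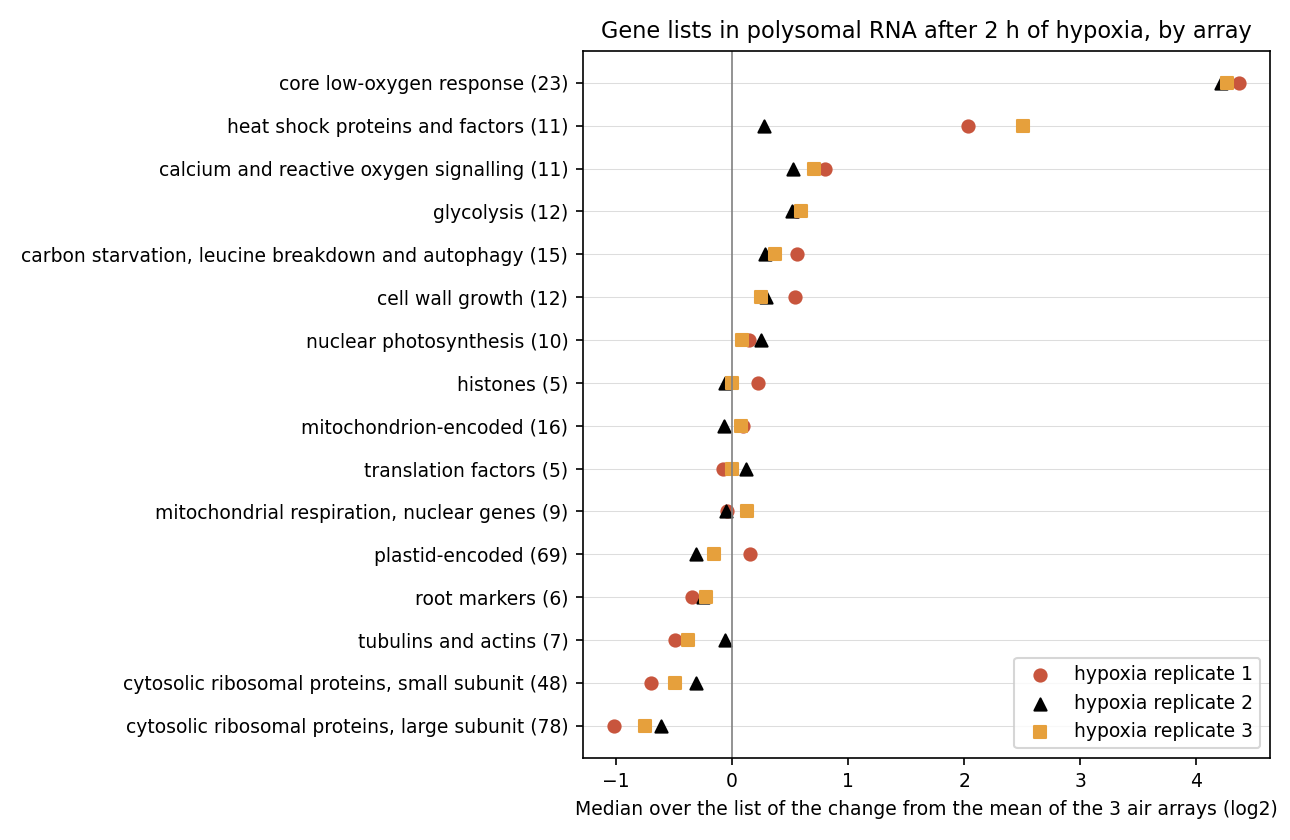
Median over each gene list of the change from the mean of the 3 air arrays in polysomal RNA (log2), with 1 symbol for each hypoxia array and the number of measured genes in brackets. The 3 arrays lie together for the core low-oxygen list (4.22 to 4.36), while for heat shock genes replicate 2 is at 0.28 and the others at 2.03 and 2.51.

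Genes of leucine breakdown rose together with some autophagy genes. Of 15 measured genes of 30 on the list of carbon starvation, leucine breakdown and autophagy 8 rose and 1 fell (15.7% and 17.6% of all probe sets), with a median of 0.40 that was -0.43 on the deposited values (2 rose and 8 fell). MCCA, the alpha subunit of methylcrotonyl-CoA carboxylase, had levels of 1.99, 1.70 and 1.28 in air and 4.27, 2.87 and 4.23 under hypoxia, a rise of 2.13 ± 0.31 (adjusted p = 6.16e-06). IVD, isovaleryl-CoA dehydrogenase of the same pathway, went from 1.13, 0.93 and 1.13 to 3.02, 2.31 and 3.21, a rise of 1.79 ± 0.17 (adjusted p = 8.41e-09). D2HGDH rose by 1.09 ± 0.14, MCCB, the partner subunit of MCCA, by 1.04 ± 0.22, and ETFQO, which passes electrons on to ubiquinone, by 0.78 (negative on the deposited values). IVD and D2HGDH are enzymes known to pass electrons to ETFQO by way of the electron transfer flavoprotein. Of the ATG8 genes, which coat autophagosomes, ATG8E (0.72), ATG8F (0.40) and ATG8G (0.36) rose, which on the deposited values are negative, and ATG8C fell by 0.48.

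Of 9 measured nuclear genes of mitochondrial respiration among 29 listed, 1 rose and 2 fell, which is near the share over all probe sets (15.7% and 17.6%), with a median of -0.01. NDB2, an alternative NADH dehydrogenase that bypasses complex I, was at -0.27, -0.74 and -0.73 in air and at 0.03, -0.25 and 0.34 under hypoxia, a rise of 0.62 ± 0.16 (adjusted p = 0.00255) that was -0.21 on the deposited values. AT1G80230 and AT3G15640, both subunit 5b genes of cytochrome c oxidase, fell by 0.87 and 0.56. Of 4 measured genes for folding in the endoplasmic reticulum, AT5G07340, a calnexin, was 0.44 higher (adjusted p = 0.0343, and -0.39 on the deposited values) and CRT1b, a calreticulin, fell by 0.39 (adjusted p = 0.0131). Both of these small changes lost their call when single arrays were left out, AT5G07340 without air replicate 1 or 3 or hypoxia replicate 1 or 3 (0.29 to 0.47) and CRT1b without air replicate 2 or hypoxia replicate 1 (-0.32 in both).

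Among the largest falls in named genes were genes of growth and hormone response. AT5G57760 had levels of 3.44, 3.85 and 3.69 in air and -0.16, -0.82 and -0.04 under hypoxia, a change of -3.997 ± 0.24 (adjusted p = 1.45e-12). AT3G53250, the auxin-induced small gene SAUR57, went from 2.75, 2.40 and 3.45 to 0.29, -1.20 and 0.66, a change of -2.94 ± 0.35 (adjusted p = 3.57e-07). For both genes hypoxia replicate 2 was the lowest array, in contrast to the other 13 of the 15 largest falls, where it had the smallest change. EXPA4, an expansin that loosens cell walls, went from 2.76, 3.22 and 3.12 to 0.30, 1.64 and 0.66, a change of -2.17 ± 0.27 (adjusted p = 5.90e-07). BIM1, a basic helix-loop-helix factor of brassinosteroid response, went from 2.01, 1.51 and 1.68 to -0.78, 0.30 and -0.74, a change of -2.14 ± 0.25 (adjusted p = 3.07e-07).

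The remaining 11 of the 15 largest falls in named genes were AT5G58900 (-2.62), AT1G23030 (-2.33), AT3G55170 (-2.25), AT5G06270 (-2.20), AT3G06070 (-2.13), AT1G09660 (-2.01), AT1G04000 (-2.003), AT2G38090 (-1.99), AT3G24080 (-1.97), AT5G55550 (-1.95) and AT3G55420 (-1.94). AT5G58900 and AT2G38090 encode MYB-like factors, AT1G23030 a U-box protein and AT3G55170 ribosomal protein L35. Of the 24 probe sets that fell at least 4-fold 11 are named. The highest adjusted p among the 15 falls was 6.80e-06. In total RNA 14 of the 15 also fell, and AT3G55170 was at 0.13 there (adjusted p = 0.807). For 8 of the 15 the fall in polysomal RNA was larger than in total RNA by the test of the difference, and for none was it smaller. Over all probe sets 7.62% lay lower in that test. The 15 were picked by the polysomal change, which enters that difference, so the count leans towards larger falls and cannot be read against this share.

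Cell wall genes split. Of 12 measured genes of 32, 6 rose and 4 fell (15.7% and 17.6% of all probe sets), with a median of 0.39 (-0.43 and 2 rises on the deposited values). XTH18, a xyloglucan endotransglucosylase that remodels walls, went from 2.05, 2.13 and 1.63 to 4.46, 3.17 and 4.78, a rise of 2.198 ± 0.26 (adjusted p = 2.97e-07). Its neighbour XTH19 went from -0.13, -0.44 and -0.28 to 2.44, 0.31 and 2.52, a rise of 2.04 ± 0.34 (adjusted p = 3.81e-05), and XTH20 rose by 0.97. For XTH18 and XTH19 replicate 2 was again the lowest hypoxic array. The expansins EXPA4 and EXPA15 (-1.09 ± 0.20) fell, as did the expansin-like EXLA2 (-0.81), while EXPA8 (0.77, negative on the deposited values), EXLA1 (0.94) and EXLB1 (0.87) rose. Of 7 measured tubulins and actins, TUB1 (-0.71), TUB5 (-0.62) and TUB6 (-0.47) fell, and ACT11 (0.78, but -0.046 on the deposited values) and TUA6 (0.35, negative there too) rose. Among 5 measured histone genes HTB11 fell by 0.49 and AT2G28720 rose by 0.49 (-0.34 on the deposited values), and of 2 clock genes GI was 0.36 higher (adjusted p = 0.0281, and -0.47 on the deposited values). The calls of AT2G28720 and GI ended when single arrays were left out (AT2G28720 at 0.41 without hypoxia replicate 1, and GI at 0.31 to 0.36 without air replicate 1 or 3 or hypoxia replicate 1 or 3).

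Genes for proteins of the cytosolic ribosome fell as a group. Of 126 genes with a named probe set among 218 listed, 94 fell and none rose, where 17.6% of all probe sets fell, and 1 gene was higher at an unadjusted p under 0.05. All 3 hypoxia arrays lay below all 3 air arrays for 98 of the 126, where the share over all probe sets was 22.1%. Many ribosomal proteins have near-identical gene copies, whose probe sets may read each other's transcripts. Of the probe sets used for the 126 genes, 0 had a name that marks them as shared (ending in _s_at or _x_at). The median change was -0.69, against -0.02 for all probe sets. The large subunit moved further than the small one in its median: 62 of 78 fell with a median of -0.83, and 32 of 48 fell with a median of -0.51. Per-array medians for the large subunit were -1.01, -0.61 and -0.75, and for the small subunit -0.70, -0.31 and -0.49. Without hypoxia replicate 2, 64 genes of the large and 33 of the small subunit fell, with medians of -0.89 and -0.62. The change was uneven within the complex, with 26 large-subunit and 8 small-subunit genes at or below -1, and the 2 lists spanned -2.25 to 0.14 and -1.46 to 0.32.

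After AT3G55170, which went from 1.58, 1.36 and 1.62 to -1.55, -0.03 and -0.59, the largest falls in the large subunit were in AT5G67510, AT5G47700 and AT1G74270. AT5G67510 had levels of 5.36, 5.53 and 5.42 in air and 3.24, 4.31 and 3.45 under hypoxia, a change of -1.77 ± 0.19 (adjusted p = 7.06e-08). AT5G47700, an acidic P1 protein of the ribosomal stalk, went from 5.99, 5.91 and 5.97 to 3.87, 4.53 and 4.16, a change of -1.77 ± 0.17 (adjusted p = 1.13e-08). AT1G74270 changed by -1.70 ± 0.16. In each the air arrays lay close together and every hypoxic array was lower. In the small subunit AT4G39200 went from 6.05, 6.12 and 6.20 to 4.41, 4.85 and 4.72, a change of -1.46 ± 0.12 (adjusted p = 5.95e-10), AT2G21580 changed by -1.36 ± 0.17, AT5G27700 by -1.32 ± 0.11 and AT3G02080 by -1.25 ± 0.12. Of 5 measured translation factors of 34 listed 1 fell, a share near the 17.6% of all probe sets. It was AT5G19510, a subunit of elongation factor 1B (5.35, 5.53 and 5.39 to 3.80, 4.42 and 4.37, a change of -1.23 ± 0.14, adjusted p = 1.49e-07). The other factors, EIF4A-2 among them at 0.00, lay between -0.04 and 0.38 and did not pass.

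**Figure D3:**
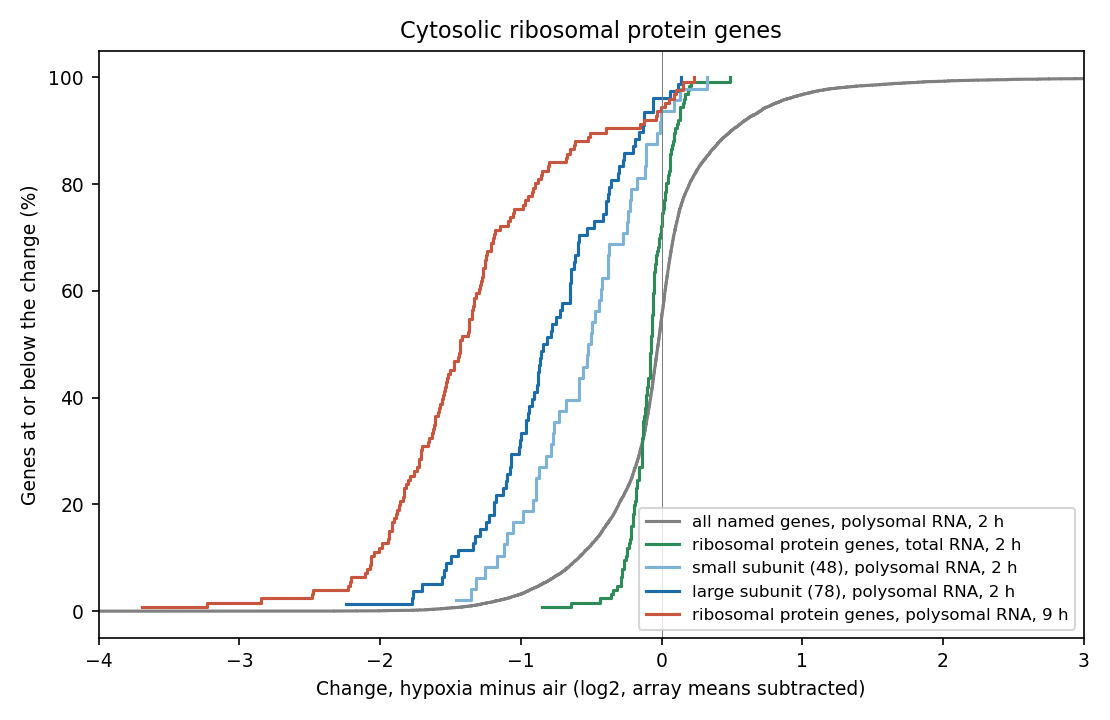
Cumulative share of genes (%) at or below a given change from air to hypoxia (log2, array means subtracted) for 48 small-subunit and 78 large-subunit ribosomal protein genes in polysomal RNA at 2 h, both together in total RNA at 2 h and in polysomal RNA at 9 h, and all named genes. The ribosomal protein curves in polysomal RNA lie left of all named genes, with medians of -0.51 and -0.83 at 2 h and -1.43 at 9 h, while the total RNA curve is centred at -0.08.

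Set against the change in total RNA, the polysomal response at 2 h was partly shared. The 2 pools have no array in common. Yet hypoxia replicate 2 had the smallest medians in both, so same-numbered arrays of the pools may not be independent. In total RNA 8.53% of probe sets rose and 12.2% fell. Of the polysomal rises 1334 probe sets also rose in total RNA, 37.4% of the 3566 in polysomal and 68.7% of the 1941 in total RNA. Of the falls 1255 were shared, 31.3% of 4012 and 45.3% of 2771. Only 105 probe sets rose in polysomal and fell in total RNA, and 77 did the reverse. The correlation of both changes was 0.693 across the 22746 probe sets, which are not independent replicates. The difference between the changes (polysomal minus total) passed the test for 1679 probe sets in the higher (7.38%) and 1733 in the lower direction (7.62%). This test did not use the replicate number, and with it as a block 2111 and 2103 passed. At least 2-fold differences were found for 287 (1.26%) and 481 (2.11%), and without hypoxia replicate 2 of the polysomal arrays the first of these became 482. The difference uses the same polysomal arrays as the polysomal change, so the values of both are given side by side. On the deposited values, where the offset is left in, 55 were higher and 18857 lower.

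The core low-oxygen genes changed to a similar size in both pools, with medians of 4.18 in polysomal and 4.30 in total RNA. The difference passed in 4 of 23: it was higher for PDC2 (0.70 ± 0.17, adjusted p = 0.00590) and AT4G27450 (0.50 ± 0.17, adjusted p = 0.0426), and lower for AT3G03270 (-1.67 ± 0.20, adjusted p = 8.29e-06) and AT5G42200 (-0.94, adjusted p = 0.0379). The counts, 2 higher and 2 lower, were near the shares of 7.38% and 7.62% over all probe sets. The differences of PDC2 and AT4G27450 are negative on the deposited values, where the offset of the polysomal arrays is left in. AT3G03270 rose by 3.40 in total RNA and by 1.73 in polysomal RNA, where it was already higher in air than in total RNA (2.77 on average, a difference of 1.27). For the remaining 19 no difference was shown.

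Ribosomal protein genes differed between the pools. Their median change in total RNA was -0.08 with 5 of 126 lower and 1 higher (12.2% and 8.53% of all probe sets). The difference was lower for 71 of 126 (24 of the small and 47 of the large subunit) and higher for none, with a median of -0.58. Over all probe sets 7.62% were lower and 7.38% higher in that test. At an unadjusted p under 0.05, 2 of the 126 were higher. Of the genes that fell in polysomal RNA, 32 of the small and 58 of the large subunit did not pass in total RNA. AT4G39200 was at 5.67, 5.65 and 5.77 in total RNA of air seedlings and at 5.56, 5.69 and 5.65 after hypoxia, overlapping ranges, and its polysomal minus total change was -1.40 ± 0.17 (adjusted p = 8.70e-06). AT5G47700 differed by -1.71 ± 0.24 (adjusted p = 3.63e-05). In air these genes lay slightly higher in polysomal than in total RNA, by a median of 0.30.

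Glycolytic genes went the opposite way relative to the average probe set. The difference was higher for 6 of 12 and lower for none, against 7.38% and 7.62% of all probe sets (none was lower at an unadjusted p under 0.05). Its median was 0.66, while their median change in total RNA was -0.03. AT1G76550 was at 1.78, 1.84 and 2.13 in total RNA of air seedlings and at 1.74, 1.67 and 1.76 after hypoxia, against its rise in polysomal RNA, and the difference was 1.12 ± 0.19 (adjusted p = 0.000198). The others were AT1G12000 (0.88) and AT1G20950 (0.80), which are also subunits of the pyrophosphate-dependent phosphofructokinase, AT5G56350 (0.81), ENOC (0.70) and AT5G42740 (0.61). The offset was -0.83 on the polysomal and -0.01 on the total arrays. On the deposited values the median difference and those of AT1G20950, AT5G56350, ENOC and AT5G42740 are therefore negative. In air 8 of the 12 were lower in polysomal than in total RNA, with a median of -0.47, where 19.4% of all probe sets were lower and 20.3% higher. NDB2 (1.19 ± 0.22, adjusted p = 0.000533) and D2HGDH (1.31 ± 0.20, adjusted p = 8.90e-05) had the same pattern: NDB2 fell by 0.57 in total RNA and rose by 0.62 in polysomal RNA.

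**Figure D4:**
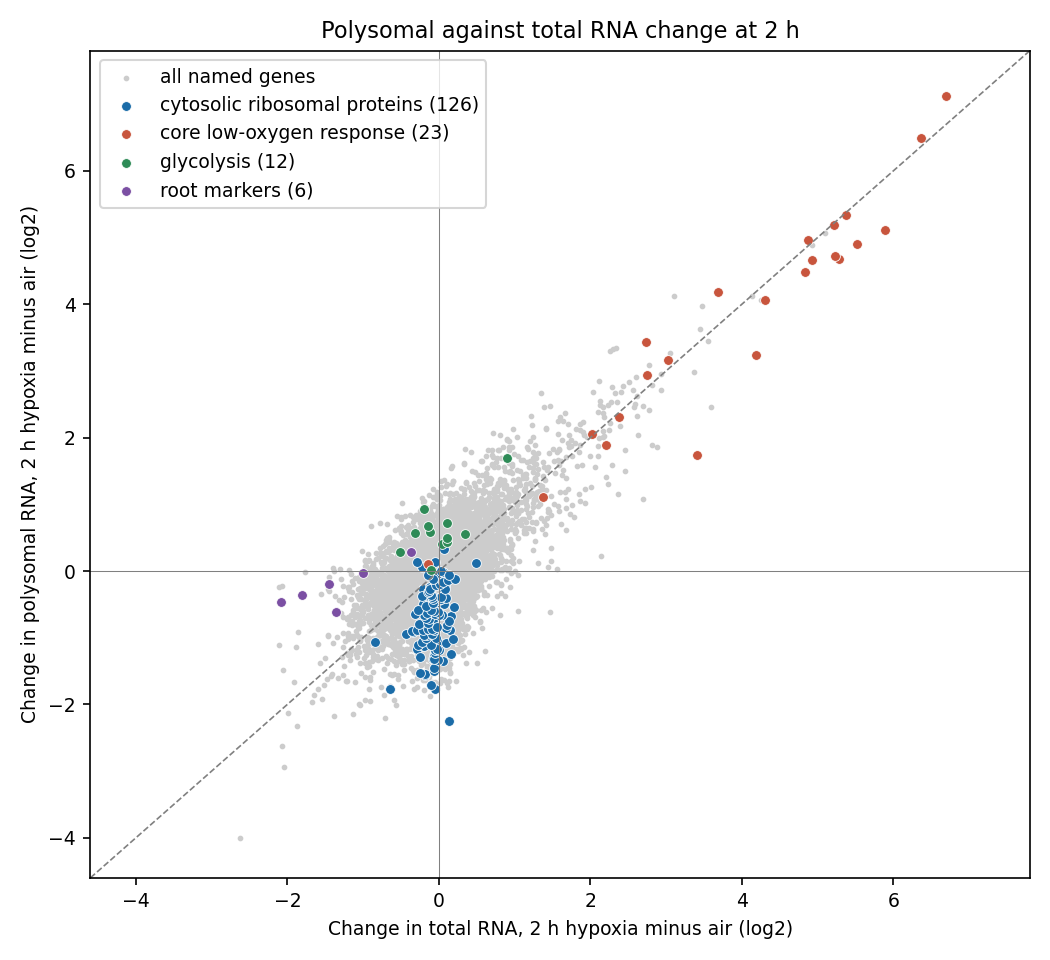
Change in polysomal RNA against change in total RNA after 2 h of hypoxia (log2, array means subtracted), with 1 point for each named gene, coloured for 4 gene lists, and a dashed line of equal change. Core low-oxygen genes follow the line (medians 4.18 and 4.30), ribosomal protein genes lie below it (-0.69 and -0.08), and glycolytic genes (0.57 and -0.03) and root markers (-0.28 and -1.40) lie above it.

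Most of the largest differences of named genes in the higher direction were in genes that fell in total RNA and were low on the polysomal arrays. AT5G04960 (1.87 ± 0.19), AT1G34510 (1.84 ± 0.21), AT3G49960 (1.76 ± 0.24), EXPA18 (1.61 ± 0.20) and AT1G30870 (1.45 ± 0.29) all fell by 1.76 to 2.11 in total RNA. In polysomal RNA they were low already in air: AT5G04960 was at -1.89, -1.68 and -1.49 in air and at -1.931, -1.841 and -2.0004 under hypoxia, and its level in total RNA of air seedlings was 1.00. EXPA18 is an expansin of root hairs, and AT1G34510, AT3G49960 and AT1G30870 are class III peroxidases. The part of these low polysomal levels in the difference was not tested. GTR2, a glucosinolate transporter, AT5G44380 and AT5G64030 rose in polysomal RNA: GTR2 rose from 0.66, 0.59 and 0.79 to 1.5003, 0.99 and 1.59 in polysomal RNA and fell by 0.90 in total RNA, a difference of 1.57 ± 0.25 (adjusted p = 0.000139). AT5G44380 rose by 1.02 and AT5G64030 by 0.72 (GTR2 and AT5G64030 are negative on the deposited values), with differences of 1.508 ± 0.27 and 1.499 ± 0.19.

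The largest differences of named genes in the lower direction were in AT3G55170 (-2.37 ± 0.34), AT1G33050 (-2.09 ± 0.36), AT2G07777 (-1.91 ± 0.40), AT1G76405 (-1.89 ± 0.27), AT3G61100 (-1.89 ± 0.27), AT1G22270 (-1.87 ± 0.28), AT3G57450 (-1.81 ± 0.33) and AT1G21770 (-1.79 ± 0.21). AT3G55170, AT3G61100, AT1G22270, AT1G21770, AT1G76405 and AT3G57450 fell in polysomal RNA by 1.20 to 2.25 with no call in total RNA. AT1G22270, for one, went from 3.55, 3.78 and 3.66 to 1.55, 2.45 and 1.76 in polysomal RNA, and was at 2.15, 2.50 and 1.82 in air and 2.12, 2.49 and 2.26 after hypoxia in total RNA. AT1G33050 and AT2G07777 rose in total RNA (1.47 and 2.14) and were not called in polysomal RNA (-0.62 and 0.23).

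Markers of organs and organelles were represented unevenly in the polysomal pool. Nuclear photosynthesis genes, which mark green tissue, had high signals, with a median level of 6.51 in polysomal RNA of air seedlings and 6.76 in total RNA, and of 10 measured genes of 60 listed 3 rose (LHCB4.3, 0.79; ATPC1, 0.53; PSAN, 0.31) and 2 fell (LHCB4.2, -0.66; LHCB4.1, -0.38), against 15.7% and 17.6% of all probe sets, whereas on the deposited values 9 fell and none rose. The call of LHCB4.1 ended without hypoxia replicate 1 (-0.26). Root markers were lower in polysomal than in total RNA in air for 6 of 6 (19.4% of all probe sets), with a median of -2.30. Of the 6, EXPA7 (-1.56), EXPA18 (-1.15), AT1G30870 (-1.09) and AT4G26010 (-1.30) lay below the average probe set in polysomal RNA of air seedlings. The others lay above it, PYK10, a root beta-glucosidase, at 6.95 and AT4G30170 at 1.17. In total RNA all 6 root markers fell after hypoxia (12.2% of all probe sets), with a median of -1.40. In polysomal RNA PYK10 was called higher (0.29, but -0.54 on the deposited values) and EXPA18 lower (-0.47), shares near the 15.7% and 17.6% of all probe sets. The call of PYK10 ended without air replicate 2 (0.17) or hypoxia replicate 1 (0.24) or 2 (0.30). In whole seedlings fewer cells of a type and less RNA per cell cannot be told apart. None of the 7 seed storage markers had a named probe set.

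RNAs of the organelles, which the tagged cytosolic ribosome does not translate, were depleted in the polysomal pool. All 69 measured plastid-encoded genes were lower in polysomal than in total RNA in air, by a median of -4.86, and 12 of 16 mitochondrion-encoded genes were lower, by a median of -0.91. Over all probe sets 19.4% were lower. Few plastid-encoded genes were called after hypoxia in polysomal RNA, against 15.7% higher and 17.6% lower over all probe sets. Of the 69, psbL was 1.11 higher (adjusted p = 0.0139), and matK (-1.33, adjusted p = 0.0435) and psbC (-0.71, adjusted p = 0.0256) were lower. These 3 calls ended when single arrays were left out, psbL without hypoxia replicate 3 (0.57), matK without any 1 of 5 arrays (-1.44 to -0.78, all but hypoxia replicate 1), and psbC without air replicate 1 or 3 or hypoxia replicate 2 or 3 (-0.71 to -0.47). Without hypoxia replicate 2, 4 plastid-encoded genes rose and none fell. No mitochondrion-encoded gene passed in polysomal RNA in limma, also none at an unadjusted p under 0.05. In total RNA 8 of the 16 rose (8.53% of all probe sets), and the difference was lower for 3 (7.62%). Their levels in polysomal RNA of air seedlings were low, with a median of -1.76 and a highest of -0.35. Of the 16 genes 5 were read by probe sets whose names mark them as shared (ending in _s_at or _x_at). Probe sets of low level were seldom called, so the missing calls do not show that these RNAs stayed unchanged.

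The 2 h polysomal changes were then set against those at 9 h, which have air controls of their own. The polysomal change at 9 h minus that at 2 h passed for 2078 probe sets in the higher (9.14%) and 2637 in the lower direction (11.6%), and 592 and 985 of these were at least 2-fold (2.6% and 4.33%). The 2 h arrays enter both this difference and the 2 h change. On the deposited values 1100 were higher and 4359 lower, so changes at 9 h too are relative to the average probe set. The offset of the 9 h arrays is not given here. For the core low-oxygen genes the median change was 4.18 at 2 h and 4.17 at 9 h, while the median of the differences gene by gene was 0.44, with 8 of 23 genes higher and 2 lower at 9 h. All 3 fermentation genes had a larger change from air at 9 h. That of PDC2 was larger by 3.09 ± 0.17 (adjusted p = 1.29e-11), at 3.43 after 2 h and 6.53 after 9 h. For PDC2 the air arrays differed more between the times than the hypoxia arrays did. Its levels in air were 1.93, 1.85 and 2.02 at 2 h and -0.27, -0.07 and -0.04 at 9 h. Under hypoxia they were 5.58, 5.09 and 5.43 at 2 h and 6.47, 6.29 and 6.44 at 9 h. Ribosomal protein genes fell further, with a median of -1.43 at 9 h against -0.69 at 2 h, 114 of 126 lower than in air (25.3% of all probe sets), and 75 lower at 9 h than at 2 h by the test of the difference (none higher, and 1 at an unadjusted p under 0.05).

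Heat shock genes made the largest further rise among the lists, from a median of 1.74 to 4.05, with 11 of 11 above air at 9 h (22.6% of all probe sets) and 8 of 11 higher at 9 h than at 2 h. AT1G53540 was at -1.84, -1.51 and -1.63 in 9 h air and at 4.79, 5.22 and 5.35 after 9 h of hypoxia, so the 9 h hypoxia arrays lay closer together than those at 2 h, and its change was 4.33 ± 0.76 larger than at 2 h (adjusted p = 0.000166). AT1G63530 (4.295 ± 0.59), AT1G08310 (3.65 ± 0.47), AT2G29500 (3.60 ± 0.49) and AT1G68240 (3.56 ± 0.28) followed among the named genes. AT1G68240 had risen by 0.63 at 2 h (negative on the deposited values) and was 4.18 higher than in air at 9 h. The largest differences of named genes in the other direction were AT3G07010 (-2.68 ± 0.34), AT3G54400 (-2.59 ± 0.29), AT5G03230 (-2.54 ± 0.28), AT4G11190 (-2.53 ± 0.30) and AT5G54370 (-2.52 ± 0.30). AT5G54370 and AT5G03230 changed sign: both rose at 2 h (1.60 and 1.07) and were lower than in air at 9 h (-0.91 and -1.46). AT5G54370 was at 0.12, -0.15 and 0.07 in air and 1.91, 1.41 and 1.52 under hypoxia at 2 h, and at -0.05, -0.63 and -0.11 in air and -1.01, -1.50 and -1.02 under hypoxia at 9 h, with no overlap at either time.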

How the data were processed

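The deposited values are log2 signals of Affymetrix arrays, for which the submitters' processing notes name RMA. Its version, the arrays processed together and the step behind the lower polysomal signals were not given in the sources used here, and the number of arrays limits the precision. No 2 arrays held identical values. The mean over 22746 non-control probe sets was subtracted from each array (64 controls were left out). Group means of all 10 groups were fitted with limma 3.58.1 (R 4.3.3) on 30 arrays with 20 residual degrees of freedom, no filter and no block. The p values were adjusted after Benjamini and Hochberg over every probe set tested, with 0.05 as threshold.

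A probe set was named where the probe table gives 1 gene (13513, while 503 had several and 8730 none), and the brightest stood for its gene. Fits were tested on simulated data. Members and the gene lists were chosen with earlier results of these data known. Named were the 15 largest rises and falls without overlap, up to 4 passing members of each list with other members by value, and the largest differences from total RNA (8 a direction) and from 9 h (5). Alternatives were other scalings (deposited values, array median, quantile), a filter, smaller fits, a replicate block, a robust fit, probe-set means and left-out arrays. Sequences were not analysed here. Same-numbered air and hypoxia arrays of polysomal RNA deviated together weakly (correlations of 0.18, 0.03 and 0.02), so the numbers were not used to pair arrays. A link between same-numbered total and polysomal arrays was not tested.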

Additional observations from a re-analysis of the deposited data

Results flagged for a closer look

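The difference between the polysomal and the total change at 2 h passed the test in limma for 1679 probe sets in the higher and 1733 in the lower direction. The named genes that differed upward were AT5G04960 (1.87), AT1G34510 (1.84), AT3G49960 (1.76), EXPA18 (1.61), GTR2 (1.57), AT5G44380 (1.51), AT5G64030 (1.499) and AT1G30870 (1.45). Those that differed downward were AT3G55170 (-2.37), AT1G33050 (-2.09), AT2G07777 (-1.91), AT1G76405 (-1.89), AT3G61100 (-1.89), AT1G22270 (-1.87), AT3G57450 (-1.81) and AT1G21770 (-1.79).

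Between 2 h and 9 h the polysomal change differed for 2078 probe sets upward and 2637 downward. AT1G53540 (4.33), AT1G63530 (4.295), AT1G08310 (3.65), AT2G29500 (3.60) and AT1G68240 (3.56) were higher at 9 h. AT3G07010 (-2.68), AT3G54400 (-2.59), AT5G03230 (-2.54), AT4G11190 (-2.53) and AT5G54370 (-2.52) were lower.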

How the results depend on the processing

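The deposited values, without centring, moved most counts, as the offset of the hypoxic polysomal arrays enters every change. Polysomal counts at 2 h became 623 higher and 20042 lower (246 and 6528 at least 2-fold), polysomal minus total 55 and 18857 (3 and 5963), and 9 h minus 2 h 1100 and 4359 (1579 lower at least 2-fold). List medians became 3.36 for core low-oxygen genes (1 fell), -0.26 for glycolysis (1 rose, 7 fell), -0.18 for calcium and reactive oxygen (3 rose, 4 fell), -0.43 for carbon starvation (2 rose, 8 fell), -0.84 for respiration (0 rose, 8 fell) and -0.43 for cell wall genes (2 rose). They became -1.14 for tubulins and actins (0 rose, 6 fell), -0.77 for histones (0 rose, 5 fell), -1.34 and -1.66 for small and large ribosomal subunits, -0.82 for translation factors (5 fell), -0.65 for photosynthesis (0 rose, 9 fell), -1.10 for root markers (0 rose, 6 fell), -0.94 for plastid-encoded (0 rose, 50 fell) and -0.79 for mitochondrion-encoded genes (15 fell), and 1 heat shock gene fell. Among the 85 genes named for the 2 h change by the rules and refitted, those that changed sign were AT5G42740 (-0.11), AT5G56350 (-0.15), NDB2 (-0.21), AT5G07340 (-0.39), ACT11 (-0.046), AT2G28720 (-0.34), GI (-0.47), LHCB4.3 (-0.033), ATPC1 (-0.30) and PYK10 (-0.54).

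With only the 6 arrays compared, 9 of the 85 genes lost their call, namely WRKY53, AT1G53540, ATHSP22.0, AT5G07340, TUB6, LHCB4.1, PYK10, matK and psbL. With array medians subtracted, 2 respiration genes, 1 translation factor and 5 photosynthesis genes rose. Quantile normalization gave a glycolysis median of 0.52 and 0 rising root markers. Without hypoxia replicate 2 the core median was 4.31, 2 respiration genes and 1 translation factor rose, 0 root markers rose and 2 fell, and 4 plastid-encoded genes rose and 0 fell. Single left-out arrays gave 2978 to 3628 rises and 3279 to 4169 falls, and 251 to 482 polysomal minus total differences of at least 2-fold upward. With the replicate number as a block 3875 rose and 4388 fell, and no count moved by over 1.5 times. The array count limits what small changes can show, and probe sets of low level were seldom called.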
